A study of Mus musculus with 6 samples.

Results

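A group of 29 genes was nearly silent in control mouse embryonic stem cells (ESCs) and expressed at substantial levels in clones labelled as ESCs that carry a short hairpin RNA against Exosc2. They are the genes of the deposited expression table with a mean under 10 scaled read counts over the 3 controls and a mean of at least 500 over the 3 clones. Of 17912 genes in the table, 39 met both thresholds. The other 10 were left out by name, because their symbols belong to families such as keratins, serpins, claudins and solute carriers, or are Ehf or Avil. The members were thus chosen by their measured mean levels in both groups. The difference of these genes between controls and clones is therefore described here, and no test of it is used.

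Poly(A) RNA was sequenced from 6 libraries of ESCs, the pluripotent cells of the early embryo. The 3 controls (replicates 1, 2 and 3) are given as wild type and the 3 clones (replicates 5, 6 and 7) as an EXOSC2 knockdown made with a short hairpin RNA. EXOSC2 belongs to the RNA exosome, the complex that trims and degrades RNA from its 3′ end. The sample titles number the knockdown libraries as clones 5, 6 and 7. The labels do not say whether the controls carry a control hairpin or whether clones and controls share a parental line. Nor do they say whether the control libraries came from separate cultures, so the spread between controls may be technical.

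Exosc2 itself measured 2457, 2473 and 1954 scaled counts in controls 1, 2 and 3 and 1138, 997 and 981 in clones 5, 6 and 7, which left the clones at 45.3% of the control mean. The libraries held between 21107761 and 26494985 reads assigned to genes. The clones lacked most markers of the cell type given in their labels. Of 12 ESC marker genes tested, 11 were lower in the clones and 1, Pou5f1, was higher. Nanog, a core pluripotency factor, measured 9698 ± 366 (SD, n = 3) scaled counts in controls and had 2 reads in all clones together, whereas Pou5f1 measured 21045 ± 4721 and 91114 ± 2227. At an adjusted p under 0.05 (limma, Benjamini-Hochberg over 15179 genes), 73.5% of all genes tested differed between the groups, 35.2% higher and 38.3% lower in the clones. Every clone lay above every control for 36.7% of the genes tested. All 29 genes of the group also met both criteria, which follows from how they were chosen and carries no further information.

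The 29 genes come from programmes that are not usually found together in 1 cell type. By what is known of the 28 described here, 5 are neural (Tlx2, Shisa6, Luzp2, Htr1b and Sybu), 5 are haematopoietic (Srgn, Lat2, Clec4a1, Tspan32 and Pyhin1), 4 are epithelial (Tmigd1, Pkp1, Trpv3 and Rnf183) and 2 are endothelial (Sele and Nppc). Another 2, Aox3 and Cmbl, are enzymes of liver, kidney or intestine. Aspa marks oligodendrocytes and kidney, and Phex marks bone-forming cells. The remaining 8 were given no cell type. These assignments are background knowledge and not a measurement. In most adult tissues such genes are switched on by lineage transcription factors during differentiation and remain off in pluripotent cells. In bulk RNA, a high level in a few cells cannot be told apart from a moderate level in all cells.

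Together the 29 genes took up between 0.000576% and 0.000617% of reads in the controls and between 0.306% and 0.327% in the clones. Their summed level was 134, 134 and 138 scaled counts in controls 1, 2 and 3 and 75797, 81524 and 74895 in clones 5, 6 and 7. Srgn and Aspa contributed a large part. Without both, the sums were 124, 129 and 132 in the controls and 35969, 38808 and 35680 in the clones. No control value of any member exceeded 18.1 scaled counts and no clone value fell under 426. In 18 members all 3 controls were under 10, and in 25 members all 3 clones were at 500 or more.

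**Figure D1:**
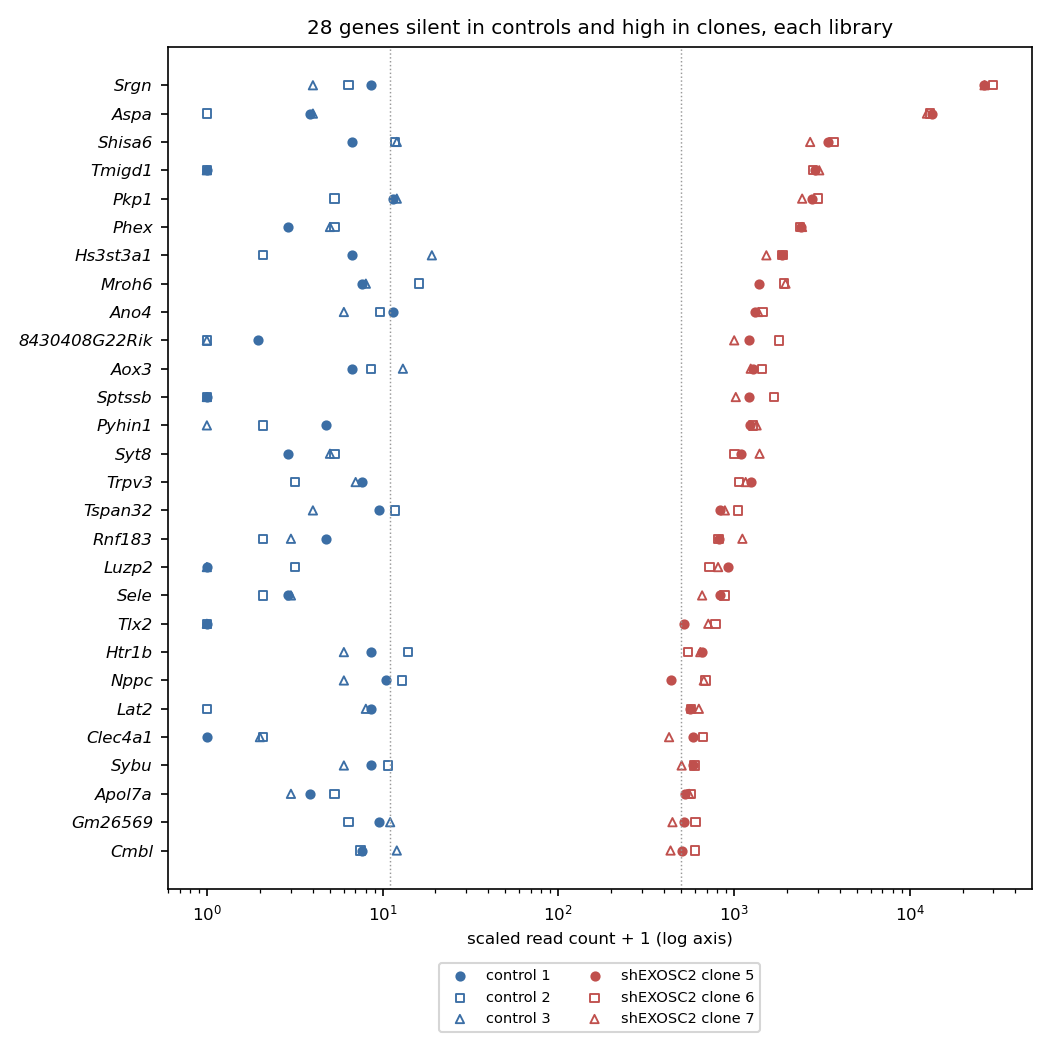
Scaled read counts plus 1 (log axis) of 28 of the 29 genes in each of the 6 libraries. Blue symbols are controls 1, 2 and 3, red symbols are clones 5, 6 and 7, and dotted lines mark the means of 10 and 500 used to choose the genes. Control values end at 18.1 and clone values start at 426, so the groups stay apart in every gene shown, which largely follows from how the genes were chosen.

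Silence in the controls was common, and few of the silent genes reached this level in the clones. In the table, 2723 genes had a control mean under 10, and 1.43% of these reached a clone mean of 500. The opposite pattern, a control mean of at least 500 and a clone mean under 10, was seen for 137 genes before any name was left out. Just inside the control threshold lay Mroh6 (control mean 9.59), Shisa6 (9.18) and Nppc (8.79), and among those just outside it were Gm14137 (11.05) and Scn4b (11.9). Just inside the clone threshold lay Cmbl (clone mean 512), Gm26569 (522) and Apol7a (549), and just outside it Pax9 (480), Kpna7 (470) and 9330159F19Rik (444). Some genes with high clone means missed the control threshold narrowly. Tph1, the tryptophan hydroxylase of peripheral serotonin synthesis, had a control mean of 12.8 and a clone mean of 42780. Prok2, a secreted prokineticin, had means of 17.8 and 7652.

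**Figure D2:**
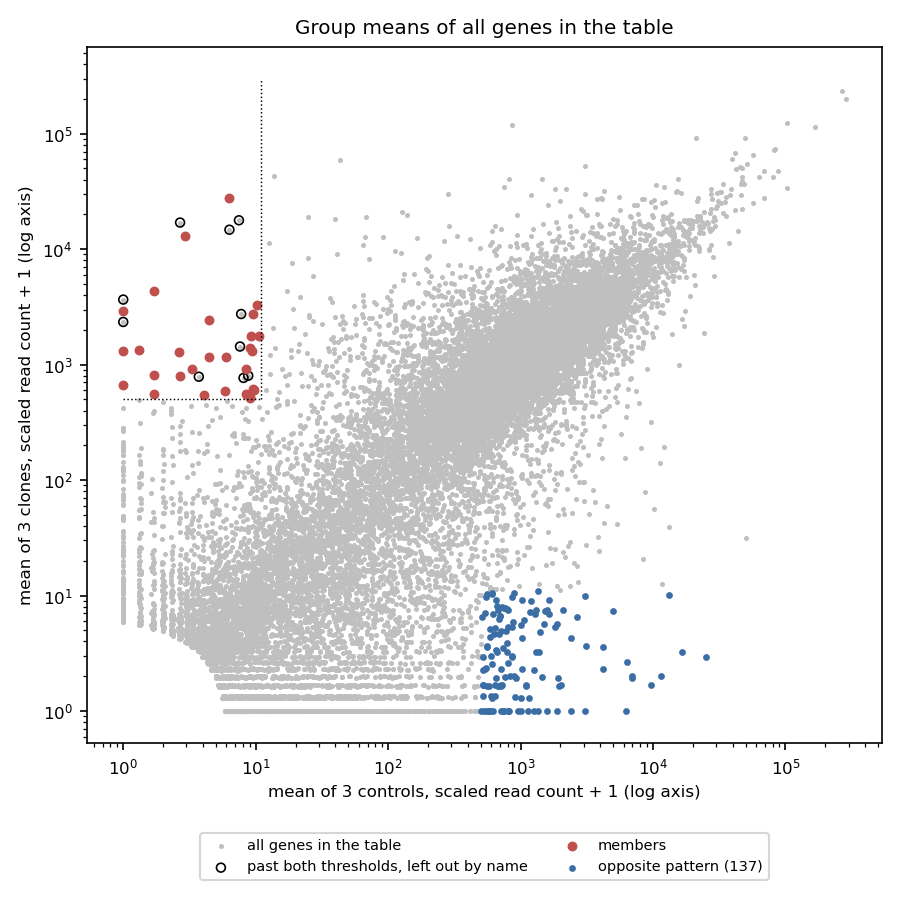
Mean scaled read count plus 1 over 3 controls (horizontal, log axis) and over 3 clones (vertical, log axis) for every gene in the table. Red points are the 29 genes, open circles the 10 left out by name, blue points the 137 genes with the opposite pattern and grey points all others, and dotted lines enclose the chosen corner. Tph1, with means of 12.8 and 42780, lies just right of the corner.

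The starts of these genes were poor in CpG, the dinucleotide that is dense at the promoters of widely expressed genes. RefSeq promoter windows (GRCm38.p6) of 300 bases, 250 before and 50 after the annotated start, were found within 500 bases of the annotated 5′ end for 18 of the 29 members. The median ratio of observed to expected CpG was 0.294 in these 18, 0.745 in 11065 genes of the table with a window, 0.839 in 4573 genes with both group means at 500 or more, and 0.377 in 1074 genes with a control mean under 10. A ratio of 0.6 or more was found in 2 of the 18 members (11.1%), in 68.6% of all genes with a window and in 30.5% of those silent in controls. Of these sets, the members lay nearest to the other silent genes. Hs3st3a1 (0.725) and Nppc (0.806) were the 2 exceptions. The 250 bases before the start are shown 5′ to 3′ for both, and for Srgn and Tspan32 as CpG-poor members, with each CpG in capitals.
Hs3st3a1, chr11:64435082-64435331, plus strand: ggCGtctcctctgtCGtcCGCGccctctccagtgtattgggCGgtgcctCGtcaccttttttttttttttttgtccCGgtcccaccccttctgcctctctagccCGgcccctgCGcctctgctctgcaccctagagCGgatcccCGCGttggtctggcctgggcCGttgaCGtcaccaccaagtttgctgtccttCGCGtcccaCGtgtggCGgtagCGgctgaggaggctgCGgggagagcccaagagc
Nppc, chr1:86670574-86670823, minus strand: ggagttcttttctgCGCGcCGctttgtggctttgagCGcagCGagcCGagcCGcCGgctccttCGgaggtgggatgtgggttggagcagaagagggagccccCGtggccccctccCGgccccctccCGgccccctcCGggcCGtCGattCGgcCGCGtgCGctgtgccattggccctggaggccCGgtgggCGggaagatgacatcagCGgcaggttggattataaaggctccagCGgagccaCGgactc
Srgn, chr10:62527446-62527695, minus strand: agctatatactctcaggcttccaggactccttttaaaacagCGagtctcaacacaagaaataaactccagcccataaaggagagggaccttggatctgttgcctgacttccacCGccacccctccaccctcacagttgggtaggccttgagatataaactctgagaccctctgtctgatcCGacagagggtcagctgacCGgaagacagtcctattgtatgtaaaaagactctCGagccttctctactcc
Tspan32, chr7:143004796-143005045, plus strand: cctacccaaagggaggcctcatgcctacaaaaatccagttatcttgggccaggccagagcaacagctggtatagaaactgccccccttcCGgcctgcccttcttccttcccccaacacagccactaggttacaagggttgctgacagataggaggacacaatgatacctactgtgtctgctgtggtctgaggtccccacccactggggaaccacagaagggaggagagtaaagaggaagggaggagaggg
Within these 250 bases the count of CpG was 20 in Hs3st3a1, 24 in Nppc, 5 in Srgn and 1 in Tspan32.

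**Figure D3:**
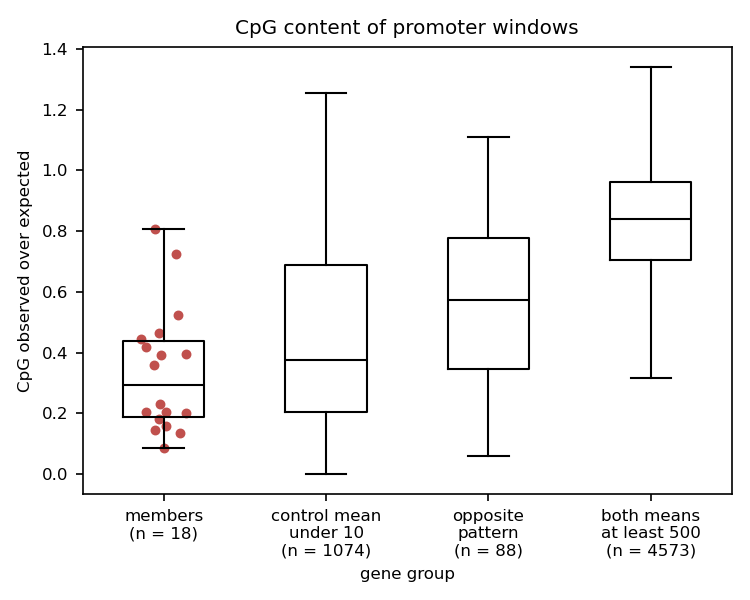
Ratio of observed to expected CpG (vertical) in 300-base promoter windows, by gene group (horizontal). Boxes span the quartiles with the median as a line, whiskers reach the last value within 1.5 times the box height, values beyond are not drawn, and red points are the 18 members with a window. The members' median of 0.294 lies below that of 0.377 for genes silent in controls and 0.839 for genes at 500 or more in both groups.

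A total of 10 short motifs were searched in the windows, on both strands except the TATA box. The TATA box, TATAAA on the gene's own strand between 50 and 11 bases before the start, was found in 3 of 18 members (16.7%), in 1.72% of genes of the table and in 2.40% of all 32851 RefSeq windows. The AP-1 site TGANTCA, bound by FOS and JUN proteins, was found in 4 of 18 members (22.2%), 5.27% of genes of the table and 7.81% of all windows. Among genes with a control mean under 10, the shares were 4.38% for the TATA box and 9.96% for AP-1. The GC box GGGCGG was found in 3 members (16.7%), 63.4% of genes of the table and 35.7% of all windows. The CCAAT box CCAAT was found in 6 members (33.3%), 38.8% of genes of the table and 37.4% of all windows. The sequence AGATAA of GATA factors was found in 3 members (16.7%), against 6.28% and 11.2%. The E-box CACGTG was found in 2 (11.1%, against 10.2% and 7.15%) and the general E-box CANNTG, which includes CACGTG, in 14 (77.8%, against 64.0% and 72.3%). The cyclic AMP element TGACGTCA was found in 1 (5.56%, against 3.23% and 1.79%). The octamer ATGCAAAT (1.46% and 1.74%) and the ETS core CCGGAAGT (7.75% and 3.89%) were found in no member. These are counts of letters in a few windows and not evidence of binding.

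The matches are shown because TATA and AP-1 letters were the motifs whose shares lay furthest above those of the table. The TATA box, in capitals, starts 29 bases before the start in Tmigd1 and Nppc and 49 bases before it in Sele.
Tmigd1, chr11:76902110-76902163, plus strand: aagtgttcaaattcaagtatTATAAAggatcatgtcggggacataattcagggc
Nppc, chr1:86670569-86670622, minus strand: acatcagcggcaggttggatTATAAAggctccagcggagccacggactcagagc
Sele, chr1:164048165-164048218, plus strand: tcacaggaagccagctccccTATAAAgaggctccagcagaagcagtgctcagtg
The AP-1 letters, in capitals, start 81 bases before the start in Trpv3, 172 in Syt8, 73 in Sele and 245 in Pyhin1.
Trpv3, chr11:73267419-73267465, plus strand: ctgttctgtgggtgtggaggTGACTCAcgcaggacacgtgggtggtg
Syt8, chr7:142434658-142434704, plus strand: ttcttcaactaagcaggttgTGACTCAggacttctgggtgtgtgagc
Sele, chr1:164048141-164048187, plus strand: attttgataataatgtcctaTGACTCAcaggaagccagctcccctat
Pyhin1, chr1:173630609-173630640, plus strand: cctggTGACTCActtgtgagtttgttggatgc

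Of the haematopoietic genes, Srgn had the highest clone level per kilobase of exonic length. Srgn (ENSMUSG00000020077.14, chromosome 10, 62493833 to 62527451, minus strand) encodes serglycin, the core proteoglycan of secretory granules in mast cells and other blood cells, also made by endothelium. It measured 7.58, 5.40 and 3.01 scaled counts in controls 1, 2 and 3 and 26379, 29690 and 26671 in clones 5, 6 and 7. The ratio of means was 5175. Its clone level was 12559 scaled counts per kilobase, above 99.7% of all genes in the table and the highest of the 29. Its promoter, shown above, held 5 CpG in 250 bases.

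The other haematopoietic members had clone levels of 148 to 363 scaled counts per kilobase. Pyhin1, an interferon-inducible DNA-binding protein gene of the PYHIN family, measured 3.79, 1.08 and 0 in the controls and 1232, 1287 and 1344 in the clones. Tspan32, a tetraspanin of blood cells, had group means of 7.45 ± 4.004 and 921 ± 116 (SD, n = 3). Lat2, an adaptor of B-cell and mast-cell receptor signalling, had 4.87 ± 4.23 and 585 ± 38.8. Clec4a1, a C-type lectin of myeloid cells, had 2 reads in all controls together and 586, 668 and 426 scaled counts in clones 5, 6 and 7. The ratio was 806, with an exact 95% Poisson interval of 223 to 6655 that covers counting error only. All 5 were apart in every library, which largely follows from how they were chosen. Among all genes tested, every clone lay above every control for 36.7%.

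General markers of blood cells went both ways. Of 13 macrophage and general haematopoietic markers in the table, only 7 were high enough to test, of which 3 rose, 2 fell and 2 did not pass the test (6 rose with quantile normalization). The integrin gene Itgam rose from 7.78 ± 3.16 to 229 ± 8.14, Cd14, a receptor for bacterial lipopolysaccharide, from 7.64 ± 2.41 to 61.0 ± 2.501 and the lysosomal gene Cd68 from 801 ± 217 to 1952 ± 242, while the lysosomal membrane gene Laptm5 fell from 1593 ± 139 to 6.57 ± 2.94. Ptprc, the pan-leukocyte antigen CD45, was at a mean of 12.4 in the clones, Fcer1g, the shared Fc receptor chain, at 4.85, and Spi1, the master transcription factor of myeloid cells, at 0. The summed level of the list ranged from 2430 to 3105 in controls and from 2253 to 2707 in clones. The mast cell and basophil list holds 14 genes, of which 8 are not in the table and Hdc was too low to test. The 8 are Cpa3, Fcer1a, Ms4a2, Mcpt4, Tpsb2, Tpsab1, Cma1 and Mrgprb2. Of the 4 tested mast cell markers other than Srgn, Tph1, Gata2 and Mcpt8 rose (Mcpt8, at log2 0.77, no longer passed without control 1 or 2 or clone 5 or 7, at 0.78, 0.72, 0.69 and 0.64), and the receptor gene Kit fell from 1803 ± 365 to 102 ± 22.9.

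Partners of Lat2 moved in both directions. Of 8 tested genes of immunoreceptor signalling, 2 rose, 5 fell and 1 did not pass. The Src-family kinase gene Lyn rose from 45.6 ± 23.1 to 654 ± 50.2 (log2 fold change 3.92 ± 0.31 SE, limma adjusted p = 5.2e-06) and the docking protein gene Gab2 from 113 ± 36.6 to 753 ± 72.3. The kinase gene Syk fell from 1022 ± 127 to 112 ± 19.9 (-3.19 ± 0.18, limma adjusted p = 8.5e-07). Lat2 overlaps Rfc2 on the opposite strand, which measured 2303 and 1814, and the counting may or may not have used the strand. All 7 other PYHIN genes of the table rose, among them Ifi202b from 148 ± 54.4 to 992 ± 191 and Mnda from 9.11 ± 7.70 to 102 ± 31.7. PYHIN genes have near-identical copies, so reads may be split between them. Clec4d, a neighbour of Clec4a1 in the lectin family, rose from 1.67 ± 1.48 to 294 ± 79.4.

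Of the neural genes, Tlx2 is a lineage transcription factor of the autonomic nervous system. Tlx2 (ENSMUSG00000068327.5, chromosome 6, 83068324 to 83070293, minus strand) is a homeobox factor of enteric neurons and other neural crest derivatives. It had no control read and measured 517, 784 and 713 in clones 5, 6 and 7, at least 221-fold higher against a floor of 3 reads per library.

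Genes that usually accompany it mostly did not move with it. Of 9 tested genes of autonomic neurons and neural crest, 3 rose (Ddc, Gata3 and Tlx3), 5 fell (among them Ret, Prph, Sox10 and Foxd3) and Hand2 did not pass. Gata3, at a log2 fold change of 1.76, no longer passed without control 1 (1.31) or control 2 (1.52). Its values were 18.9, 25.9 and 95.4 in controls 1, 2 and 3. Tlx3, the paralog of Tlx2, rose from 4.85 ± 3.45 to 37.2 ± 7.19. The receptor tyrosine kinase gene Ret, needed by enteric neurons, fell from 73.4 ± 11.1 to 18.2 ± 3.53.

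The other neural members serve synapses or transport. Shisa6, an auxiliary subunit of AMPA-type glutamate receptors, measured 5.68, 10.8 and 11.05 in the controls and 3435, 3684 and 2713 in the clones. Htr1b, a serotonin receptor, had means of 8.52 ± 4.05 and 613 ± 59.6, and Sybu, the kinesin adaptor syntabulin, 7.44 ± 2.35 and 559 ± 49.4. Luzp2, a leucine zipper protein gene of brain, had 2 control reads and a clone mean of 818 ± 96.6, a ratio of 1136 with an interval of 315 to 9383. Sybu had the lowest clone level per kilobase of the 29, at 72.6, above 49.6% of genes in the table.

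Markers of neurons in general were mostly lower in the clones. Of 10 tested, Tubb3 and Map2 rose, 7 fell and 1 did not pass. Tubb3, a neuronal tubulin, rose from 743 to 1611 and Map2 from 648 to 1564. The intermediate filament gene Ina fell from 856 to 2.01, and the growth cone gene Gap43 from 262 to 7.75. Gad1, which makes the transmitter GABA, measured 163 in controls and had no read in any clone. Within the Shisa family 2 rose, 3 fell and 1 did not pass: Shisa3 rose from 38.2 ± 6.39 to 1251 ± 187, and Shisa2 fell from 188 ± 46.4 to 1.62 ± 0.519.

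Htr1b stood beside genes for making serotonin. Tph1 measured 16.1, 17.3 and 5.02 in controls 1, 2 and 3 and 44142, 44263 and 39935 in clones 5, 6 and 7 (log2 fold change 11.76 ± 0.37 SE, limma adjusted p = 6.5e-08). Ddc, which completes the synthesis, rose from 212 ± 56.3 to 2257 ± 201.1. Slc18a2, the vesicular monoamine transporter and 1 of the 10 genes left out by name, had means of 7.79 ± 1.83 and 800 ± 163. Htr1b and Slc18a2 met the thresholds by which genes were chosen. Tph1 missed only the control threshold, at a mean of 12.8, and was named by a rule on the same means. Among these genes only Ddc lay far from the control threshold, at a control mean of 212. Of 6 tested genes of the serotonin list, 3 were higher, Slc18a2 among them, 2 fell and 1 did not pass. Slc6a4, which takes serotonin back up, was at means of 1.31 and 8.74 and was too low to test, and Maoa, which degrades it, did not pass the test (1602 ± 213 and 1571 ± 196). Maob, the other monoamine oxidase gene, fell from 32.0 ± 9.38 to 2.58 ± 2.49. All 3 other serotonin receptor genes that could be tested (Htr1d, Htr3a and Htr5b) fell. With 1 library left out, 2 or 3 were called lower. Htr1d measured 3.79, 7.56 and 70.3 in controls 1, 2 and 3.

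Aspa showed the greatest ratio of the members with more than 3 control reads. Aspa (ENSMUSG00000020774.9, chromosome 11, 73304992 to 73329596, minus strand) encodes aspartoacylase, which splits N-acetylaspartate into acetate and aspartate and is known from oligodendrocytes and kidney. It measured 2.84, 0 and 3.01 in controls 1, 2 and 3 and 13449, 13027 and 12544 in clones 5, 6 and 7. The ratio of means was 6665. Its 3 clone values had a coefficient of variation of 3.48%. The enzyme that makes its substrate rose as well. Nat8l, the N-acetylaspartate synthetase, measured 150, 173 and 88.4 in the controls and 18874, 22465 and 17414 in the clones (log2 fold change 7.20 ± 0.23 SE, limma adjusted p = 6.6e-08).

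The rest of N-acetylaspartate metabolism was divided. Slc13a3, a transporter that takes up N-acetylaspartate, rose from 3.71 ± 0.657 to 64.5 ± 5.598. Rimkla and Rimklb, which join N-acetylaspartate to glutamate, fell from 282 ± 60.1 to 25.04 ± 3.13 and from 714 ± 120 to 0.674 ± 0.584. Oligodendrocyte markers did not rise with Aspa: of 8 tested, 1 rose (Mbp, from 423 to 1138), 6 fell and 1 did not pass. Sox10, the factor that directs oligodendrocytes and Schwann cells, measured 50.3 ± 13.0 in controls and had 1 read in the clones. Ugt8a, which makes the myelin lipid galactosylceramide, measured 202 ± 39.0 in controls and had no read in the clones. Kidney tubule markers also went both ways. Aqp1 rose from 60.0 ± 3.59 to 255 ± 21.6, and Aqp2, the water channel of the collecting duct, had no control read and measured 106, 136 and 131 in the clones. Lrp2, the megalin of the proximal tubule, fell from 332 ± 43.0 to 1.597 ± 1.01.

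Of the epithelial genes, Tmigd1 had no read in any control. Tmigd1 (ENSMUSG00000020839.16, chromosome 11, 76902159 to 76916587, plus strand) encodes an adhesion protein of kidney tubule and intestinal epithelium. It measured 2904, 2811 and 3055 in clones 5, 6 and 7, at least 964-fold higher than the floor of 3 reads per library. Its clone level per kilobase was 1955, the third of the 29 after Srgn and Aspa. The other intestinal markers mostly fell. Of 4 tested enterocyte markers other than Tmigd1, 3 fell and 1 rose, and the microvillus gene Vil1 measured 53.5 ± 12.8 in controls and 0.685 ± 1.19 in clones.

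The other epithelial members belong to skin and kidney. Pkp1, a plaque protein of desmosomes in stratified epithelium, measured 10.4, 4.32 and 11.05 in the controls and 2788, 2997 and 2443 in the clones. Trpv3, the warmth-sensitive ion channel of keratinocytes whose AP-1 letters are shown above, measured 6.63, 2.16 and 6.03 and then 1249, 1066 and 1164. Rnf183, a ubiquitin ligase gene of kidney, had means of 2.29 ± 1.38 and 919 ± 170.

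More desmosome genes and markers of stratified epithelium rose than fell. Of 9 tested desmosome genes other than Pkp1, 5 rose, 2 fell and 2 did not pass. Perp rose from 1202 ± 457 to 13051 ± 952 (limma adjusted p = 1.5e-06), Dsp, the desmoplakin that anchors keratin filaments, from 1562 ± 797 to 9298 ± 569, and Jup from 2315 ± 448 to 6585 ± 1124. The 2 that fell were Dsg2, from 1862 ± 289 to 679 ± 119, and Pkp4, from 3350 ± 239 to 1642 ± 40.2. Of 13 tested markers of stratified squamous epithelium, 11 rose and 2 did not pass, where 35.2% of all genes rose. Krt6a and Krt13, among the 11, met both thresholds and were left out by name, so their rise carries no further information. A filter at a mean of at least 50 left out Gsdma, Krt5, Sprr1a and Dsg3, and of the rest 7 rose. The list for this epithelium holds 26 genes, and 10 are not in the table. Ivl, Lgals7 and Dsc3 were too low to test. Krt14 no longer passed without control 1 or control 2 (log2 fold changes of 2.75 and 3.10, against 3.66), nor in edgeR and DESeq2. Its values were 5.68, 9.72 and 179 in controls 1, 2 and 3, so control 3 lay far above the others. Tgm1 no longer passed with quantile normalization (0.35, against 0.58). Dmkn, which encodes the skin protein dermokine, rose from 35.5 ± 21.4 to 3744 ± 600. Markers of epithelium in general went the other way, with 3 of 20 higher, 15 lower and 2 not passing. Ehf, among the 3 higher, also met both thresholds and was left out by name. The adhesion genes Cdh1 and Epcam fell from 15794 to 982 and from 5922 to 1006, and Grhl2, a transcription factor of epithelial identity, from 561 to 13.2.

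Both endothelial members were high in the clones, whereas most of the endothelial list was not. Sele, the E-selectin that activated endothelium shows to leukocytes, measured 1.89, 1.08 and 2.01 in controls 1, 2 and 3 and 834, 881 and 658 in clones 5, 6 and 7. Nppc, the C-type natriuretic peptide of endothelium, brain and cartilage, measured 9.47, 11.9 and 5.02 and then 437, 686 and 673. Of 7 tested endothelial markers, 1 rose (Tek, from 71.0 to 390), 4 fell and 2 did not pass; without control 3, 3 rose. Pecam1 fell from 1875 ± 176 to 11.1 ± 2.20, and Vwf from 335 ± 36.1 to 2.58 ± 0.964. Icam1, a leukocyte adhesion gene induced together with Sele in inflamed endothelium, fell from 2640 ± 455 to 67.7 ± 5.50 (log2 fold change -5.25 ± 0.16 SE, limma adjusted p = 6.1e-08). Of 6 tested genes of leukocyte adhesion on endothelium, 3 rose, 2 fell and 1 did not pass. Over these 6 genes the median log2 fold change was 1.05. Selplg, a selectin ligand, rose from 47.3 ± 12.1 to 292 ± 52.5, and Icam2 had no control read and a clone mean of 59.8 ± 34.7. Selp, the P-selectin, rose from 31.0 ± 11.4 to 76.8 ± 34.3 (log2 fold change 1.25), a call lost without control 1 (1.29), control 2 (0.96), clone 5 (1.21) or clone 7 (0.93). Vcam1, another adhesion gene, measured 176 ± 87.8 and 304 ± 96.5 and did not pass.

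Of 5 tested genes of the natriuretic peptide pathway other than Nppc, 3 rose and 2 fell. Nppb, the B-type peptide, rose from 23.5 ± 15.3 to 1270 ± 90.3, and Furin, which cleaves the precursors, from 890 ± 209 to 3708 ± 506. Of the receptors, Npr2, which C-type peptide activates, rose from 153 ± 74.0 to 334 ± 19.3, and Npr1, which answers to the A and B types, fell from 414 ± 78.3 to 40.05 ± 8.89. Npr3, the receptor that clears these peptides, fell from 80.8 ± 13.3 to 47.4 ± 8.18 (log2 fold change -0.76), a call lost without control 2 (-0.63) or clone 6 (-0.61) and with quantile normalization (-0.04).

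**Figure D4:**
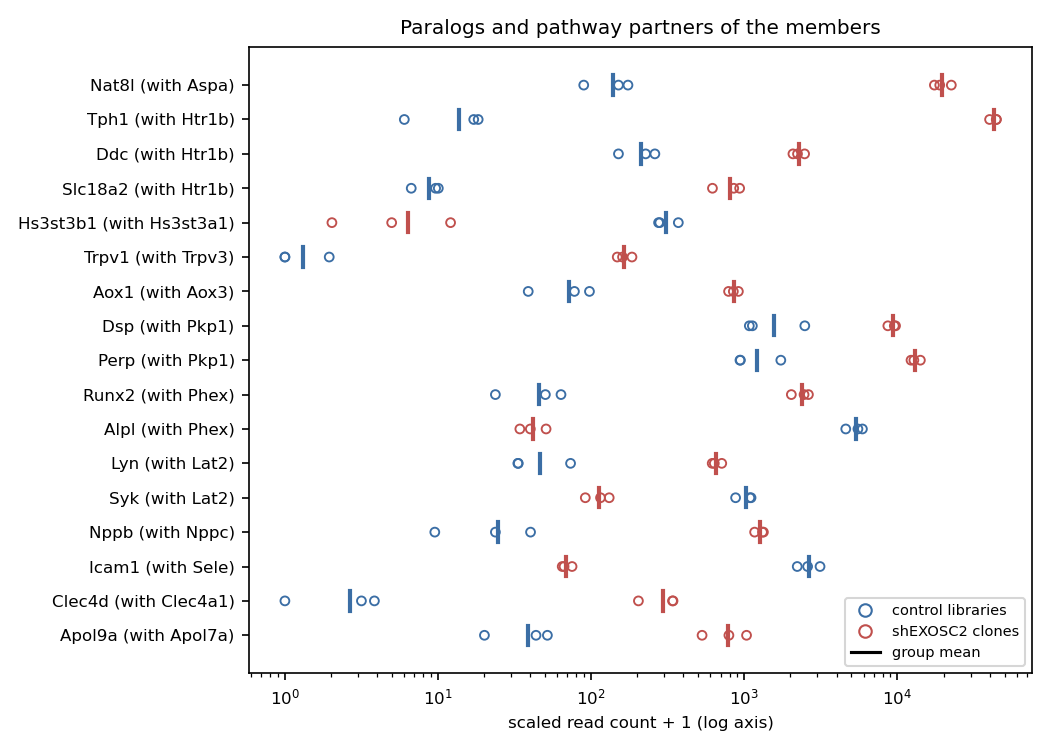
Scaled read counts plus 1 (log axis) of 17 genes that are paralogs or pathway partners of a member, which is named in brackets. Open circles are libraries (blue controls, red clones) and vertical bars group means. Nat8l and Tph1 lie far higher in the clones, and Hs3st3b1, Alpl, Syk and Icam1 far lower.

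Phex, the endopeptidase-like protein of osteoblasts, osteocytes and odontoblasts that holds phosphate in balance, measured 1.89, 4.32 and 4.02 in the controls and 2412, 2376 and 2440 in the clones. Its clone values had the smallest coefficient of variation of the 29, 1.32%. Of 3 tested bone markers 1 rose and 2 fell. Runx2, the transcription factor that starts bone formation, rose from 44.8 ± 20.3 to 2366 ± 306, and Alpl, the alkaline phosphatase of bone and also of ESCs, fell from 5337 ± 672 to 40.7 ± 8.38.

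The enzymes Aox3 and Cmbl belong to liver, intestine and kidney. Aox3, a molybdenum-containing aldehyde oxidase, measured 5.68, 7.56 and 12.1 in the controls and 1280, 1447 and 1244 in the clones. Its neighbour Aox1 on chromosome 1 rose from 70.3 ± 29.8 to 849 ± 62.7, and Xdh, which encodes the related xanthine dehydrogenase, from 22.9 ± 15.2 to 154 ± 35.9. Of 7 tested genes of molybdenum hydroxylases and their cofactor, 5 rose and 2 did not pass. Cmbl, a hydrolase, had means of 8.05 ± 2.60 and 512 ± 83.2. Only 1 hepatocyte marker was high enough to test, Apoa2, which fell from 211 ± 29.4 to 27.5 ± 3.01, and Hnf4a, a factor of liver identity, had no read in the clones.

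Among the members without a cell type, Hs3st3a1 went the opposite way to its closest paralog. Both encode heparan sulfate 3-O-sulfotransferases of nearly the same activity. Hs3st3a1 measured 5.68, 1.08 and 18.1 in controls 1, 2 and 3 and 1877, 1889 and 1528 in clones 5, 6 and 7. Hs3st3b1 measured 279, 274 and 370 and then 3.98, 1.03 and 11.1 (log2 fold change -5.95 ± 0.57 SE, limma adjusted p = 1.6e-05). The control and clone values of both genes were apart in every library, in opposite directions. For Hs3st3a1 this largely follows from how it was chosen. The 2 genes are alike in sequence, so reads may have been split between them.

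Sptssb, a small subunit of serine palmitoyltransferase, the first enzyme of sphingolipid synthesis, had no control read and measured 1215, 1691 and 1023 in the clones, at least 432-fold higher than the floor. Of 9 tested genes of this enzyme and of ceramide synthesis 6 rose, 1 fell and 2 did not pass, among them Sptlc2, a catalytic subunit, from 1732 ± 220 to 4626 ± 49.1. Ano4, an anoctamin of the family of chloride channels and lipid scramblases, had means of 8.03 ± 2.75 and 1383 ± 68.8. Of 6 other anoctamins tested 5 rose and 1 fell, and the chloride channel gene Ano1 rose from 66.1 ± 12.5 to 12617 ± 1010.

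Syt8, a synaptotagmin, had means of 3.41 ± 1.32 and 1165 ± 206, while 4 other synaptotagmins rose and 6 fell; without 1 library, between 2 and 4 rose. Among these Syt7, at log2 0.48, no longer passed without clone 5 (0.48) or clone 6 (0.46) or with quantile normalization (0.36). Apol7a, an apolipoprotein L, had 3.06 ± 1.17 and 549 ± 21.9, and its neighbour Apol9a rose from 37.5 ± 16.4 to 784 ± 252. Mroh6, which encodes a protein of HEAT repeats, had 9.59 ± 4.79 and 1758 ± 319. Gm26569, the only member annotated as noncoding, had 7.99 ± 2.37 and 522 ± 78.3. The gene 8430408G22Rik, named Depp1 in RefSeq, had 1 control read and measured 1211, 1810 and 1002 in the clones. It lies opposite to Rassf4, which rose from 350 to 2199, so its count is uncertain if the strand was not used.

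As a median, the members varied more between clones than other genes in the same range of scaled counts. The median coefficient of variation over the 3 clones was 11.8% for the 27 members with a clone mean of 500 to 5000 and 5.999% for 6654 other genes in that range. In 5 members the highest clone exceeded the lowest more than 1.5 times (8430408G22Rik, Sptssb, Nppc, Clec4a1 and Tlx2), and in none more than 2 times. Clone 6 was the highest for 17 members, clone 7 for 8 and clone 5 for 4. Among the 7682 other genes with a clone mean of at least 500, clone 6 was highest for 37.5%, clone 7 for 26.3% and clone 5 for 36.2%.

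The members were spread over 12 chromosomes, with 5 each on chromosomes 1 and 11. Chromosome-wide medians of the log2 fold change, over all genes tested, were -0.60 on chromosome 1 and 0.21 on chromosome 11, against values of 5.85 to 12.35 for the members. The only members within 100000 bases of each other were Aspa and Trpv3, 4629 bases apart on chromosome 11. Trpv1, a heat and capsaicin receptor 6146 bases beyond Trpv3, had 1 control read and measured 159, 147 and 184 in the clones. Spata22, 145 bases from Aspa on its other side, was near silent in both groups, at means of 2.69 and 4.21, and was too low to test.

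Genes near the members were higher more often than lower. Within 100000 bases lay 116 other genes of the table, and of 97 tested 55 rose (56.7%) and 24 fell (24.7%), against 35.2% and 38.3% of all genes tested. The gene-dense surroundings of Tlx2 alone held 14 of the 55 that rose and none that fell. Without them, 41 of 82 rose (50%) and 24 fell (29.3%), a count added after the values were seen. None of the 116 itself passed both thresholds. Near Mroh6, Naprt rose from 222 ± 83.0 to 3254 ± 667, and Gsdmd, which encodes the pore-forming gasdermin D, from 130 ± 3.17 to 6140 ± 336. A total of 13 members are overlapped by another annotated gene.

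Genes of 23 cell type lists were used to set the members beside other markers of the same cells. Over all distinct marker genes that are not members, 56 rose and 86 fell. Among the 56 are Ehf, Avil, Krt20, Krt6a and Krt13, which met both thresholds and were left out by name. Their rise carries no further information. Markers of stratified squamous epithelium (11 of 13 tested) and of fibroblasts (9 of 11, with Col1a1 from 2427 ± 261 to 12575 ± 4220) rose most often. Neither list holds a member, although Krt6a and Krt13 of the first are among the 10 genes left out by name. Of the 4 lists that do, mast cell markers rose in 3 of 4 tested, enterocyte markers in 1 of 4, kidney tubule markers in 2 of 4, and oligodendrocyte and Schwann cell markers in 1 of 8. In that order, 8 of 14, 8 of 14, 5 of 13 and 2 of 12 listed genes are not in the table. For these 4 lists in that order, the median log2 fold change of the tested genes other than members was 1.91, -4.08, 1.42 and -1.81, against -0.07 over all genes tested. It was 1.94 for stratified squamous epithelium and 1.93 for fibroblasts, 0.19 for macrophages and general haematopoietic markers, -2.10 for neurons, -2.71 for endothelium and -3.02 for general epithelium. Of the mast cell markers that rose, Tph1 missed only the control threshold by which the members were chosen. The call of Mcpt8 was lost without control 1 or 2 or clone 5 or 7. Whether the clones hold cells of several kinds was not tested.

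**Figure D5:**
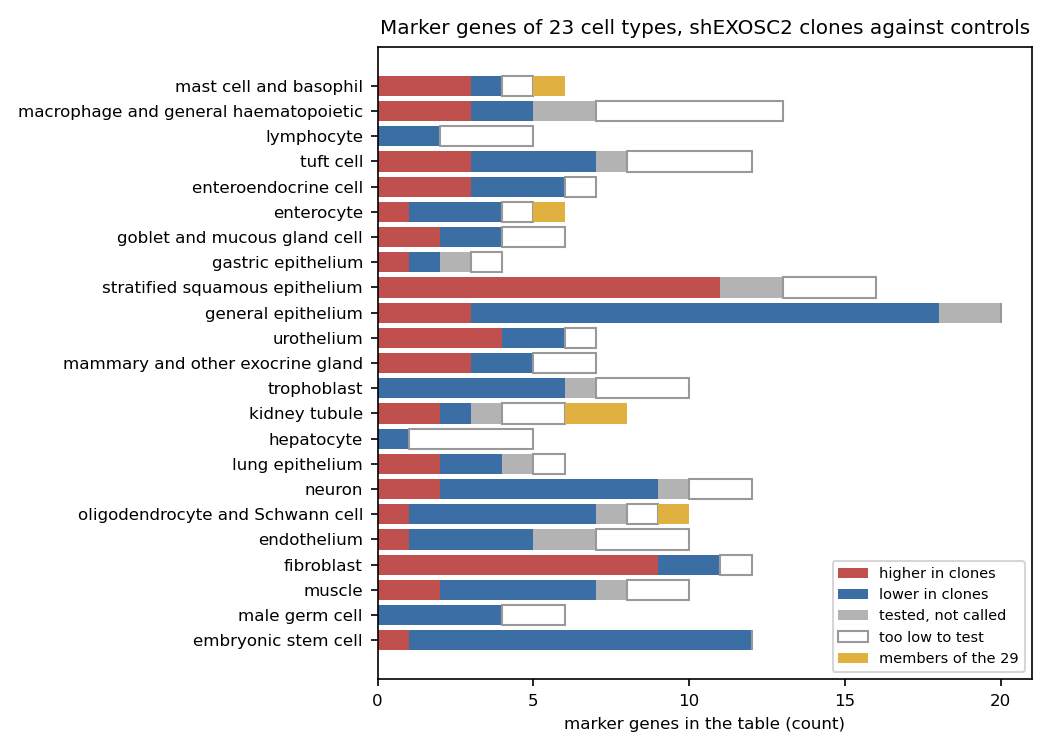
Number of marker genes in the table (horizontal) for 23 cell types (vertical), split into higher in clones, lower in clones, tested without passing, too low to test, and members of the 29. Stratified squamous epithelium has 11 higher and none lower, and embryonic stem cell has 1 higher and 11 lower.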

How the data were processed

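Poly(A) RNA libraries were made from 500 ng of total RNA by TruSeq Stranded mRNA chemistry with 8 cycles of PCR, per the labels' protocols. The deposited values are a signal: read counts per gene scaled by DESeq 1.22.1, after cutadapt 1.6, STAR 2.5.0a and HTSeq 0.5.3 on build mm10, per the submitters' processing notes. The strand setting of HTSeq was not given in the sources used here. In each library 100.0% of the values were whole multiples of 1 step within 0.001 read, so whole reads were recovered (21107761 to 26494985 per library). The table holds no gene under 15 reads in all. Of its 17912 genes, 17860 matched GENCODE M21 (GRCm38), which gave positions and exonic lengths.

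Groups came from the sample titles. All genes with a mean of at least 10, members included, were tested with limma 3.58.1 (trend) on log2(value + 1). The p-values were adjusted by Benjamini-Hochberg over all genes tested and called under 0.05. For the members the result follows from how they were chosen and is not used. Fold changes on this scale understate the change of low genes. Ratios of members are ratios of means. With no control read they are lower bounds that set 3 reads per control library as the floor, and with 1 to 3 control reads they carry an exact 95% Poisson interval. The test was checked on simulated counts. Alternatives were other pseudocounts, filters and scalings, counts tested in DESeq2 1.42.0 and edgeR 4.0.16, other thresholds, and each library left out. The software was Python 3.11.15 (with matplotlib 3.10.9, numpy 2.4.6 and pandas 2.3.3) and R 4.3.3.

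The members and all gene lists were chosen with earlier results of these data known, and the lists of pathway partners, families and neighbours after the members' names were known. Named genes are all members, genes nearest the thresholds, the 5 genes with a control mean of 10 to under 20 and the highest clone means, and from each cell type list up to 4 genes with the highest clone mean and defining genes without a read. Not all of these are described. Other genes, including pathway partners, paralogs, neighbours and further list markers, were picked after their values were seen. Exosc6, 1 member and 1 gene near a threshold are not reported here, although counts and sums over the 29 include the member.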

Additional observations from a re-analysis of the deposited data

How the results depend on the processing

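The number of genes chosen depended on the thresholds. A control mean under 5 gave 16 genes and under 20 gave 45, a clone mean of at least 250 gave 58 and of at least 1000 gave 16, and asking the same of every library gave 17. TMM scaling kept all 29, and quantile normalization gave 36, of which 27 were shared. Leaving out 1 library gave 27 to 30. Over 406 values of members from the alternative fits, the log2 fold change stayed between 5.31 and 14.51. Leaving out 1 library gave 4786 to 5570 genes higher and 5354 to 5809 lower, and 51 to 59 and 82 to 90 cell type markers; other alternatives left these 4 counts within 1.5 times. edgeR called 5190 higher and 5960 lower. Of 2022 values of 146 named genes that are no members, none reversed, 24 lost a call and 7 gained one. Calls were lost for 8 genes. Of these, Gata3, Krt14, Mcpt8, Npr3, Selp, Syt7 and Tgm1 are described with their values, and Rfc2 is given without a call. No paired analysis was possible because controls are numbered 1 to 3 and clones 5 to 7, so the groups share no replicate number. Control levels of members rest on few reads, which limits every ratio.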
